A study of Homo sapiens with 9 samples.

Results

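The cathepsins described here are 10 genes, CTSS, CTSA, CTSB, CTSC, CTSD, CTSH, CTSK, CTSL, CTSZ and CTSW, picked by symbol from the array annotation, 1 transcript cluster each, out of 17705 tested transcript clusters with a gene symbol. They were measured in the Hodgkin lymphoma line L-1236 on 9 human Clariom S arrays in 3 groups of 3. Clone g2_1 carried the lentiviral Cas9 vector (lentiCRIPSPR v2) with guide g2, aimed at the second exon of LTA, the gene of the cytokine lymphotoxin alpha. Clone g3_4 carried the same vector with guide g3, aimed at the fourth exon, and the v2 control carried the vector with no guide named in its labels, which call it wild type. All cells spent 72 h in ordinary medium before RNA was taken. Each knockout is 1 single-cell clone that earlier grew in L-1236 conditioned medium, and the labels do not say whether either holds for the control. Nor do they say that the 3 arrays of a group stand for separate cultures, so p-values measure the spread between these arrays, which may be technical. Fewer cells with a transcript and less of it per cell cannot be told apart in RNA of a whole culture.

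Cathepsins are proteases of the endosome and lysosome. They are made as inactive proenzymes, reach the lysosome mostly through mannose 6-phosphate tags and their receptors, and ripen in its acid lumen. Most are cysteine proteases of the papain family (CTSS, CTSB, CTSC, CTSH, CTSK, CTSL, CTSZ and CTSW), while CTSD is an aspartic protease and CTSA a serine carboxypeptidase. In B cells and other antigen-presenting cells CTSS cuts the invariant chain that occupies the peptide groove of MHC class II molecules. Cystatins inhibit the cysteine cathepsins, and the transcription factors TFEB and TFE3 bind E-box-like elements near many lysosomal genes.

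The targeted gene was read first. LTA had log2 signals of 7.97, 7.53 and 7.11 in g2_1 and 6.94, 7.25 and 6.61 in g3_4, against 11.58, 11.07 and 11.08 in the v2 control, so it was lower in both clones. The files do not place the array's probes within LTA. Of 9 markers of Hodgkin cells, all lay above the median of the arrays (6.21) in the control, but the list moved: TNFRSF8 (CD30) rose by 0.74 with the clones averaged, while CCL22 fell by 1.18 and BATF3 fell by 0.40, and the median change of the list was -0.37. CCL17 had means of 5.86 in g2_1 and 5.80 in g3_4, against 6.78 in control, and CCL22 means of 5.06 and 5.22, against 6.32, so both chemokine genes lay under that median in the clones. Of 5 B cell markers, 4 lay above the first quartile of the arrays (4.64) in the control and MS4A1 under it. BLK rose by 0.89 while PAX5 fell by 0.81. Without control array 1, BLK rose by 0.60 and PAX5 fell by 0.58. The part of these markers in the values of the cathepsins was not tested. Control array 1 stood apart from the other control arrays: it correlated with them at 0.9854 and 0.9844 across transcript clusters, against 0.9949 between arrays 2 and 3. Arrays numbered 1 had an RNA integrity number of 10 and the others of 9.5 to 9.6. Without control array 1, BATF3 did not pass in limma in either clone (adjusted p = 0.0632 in g2_1 and 0.106 in g3_4). Without the arrays numbered 1, or with arrays centred on their median, 2 Hodgkin cell markers rose in both clones and 1 fell. With all arrays as deposited, 1 rose and 2 fell, beside 4.48% risen and 6.97% fallen in both clones over all transcript clusters. Where leaving out control array 1 or the arrays numbered 1 ended a call of a member or moved its value by much, the value without them is given below.

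Against control cells, 4 of the 10 cathepsins fell in both clones, 3 rose and 3 passed in neither. With the clones averaged, the log2 fold change was -2.17 for CTSH and -2.08 for CTSS, and -0.56 for CTSC and -0.52 for CTSB. CTSZ, CTSD and CTSA rose by 0.47, 0.45 and 0.34. A gene passed where limma gave an adjusted p under 0.05, with Benjamini-Hochberg adjustment over all 20893 tested transcript clusters. By that rule 3 members were higher and 4 lower in g2_1, where 6.19% of all transcript clusters were higher and 8.06% lower. In g3_4 the same 3 were higher and the same 4 lower, against 6.12% and 8.16% of all. In both clones at once, 4.48% of all transcript clusters rose and 6.97% fell. The balance of all calls depended on scaling. As deposited, 43.4% of those that passed were higher in g2_1 and 42.8% in g3_4. With arrays centred on their median, 66% and 63.5% were. The cathepsins kept 3 risen and 4 fallen in both clones under both scalings. Their counts were less stable with arrays left out. Without the arrays numbered 1, 1 rose and 3 fell, and without control array 1, 2 rose and 4 fell. The median change of the 10 was -0.068, and that of all transcript clusters 0.035. Both clones are compared with the same 3 control arrays, and their changes are therefore not independent.

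**Figure D1:**
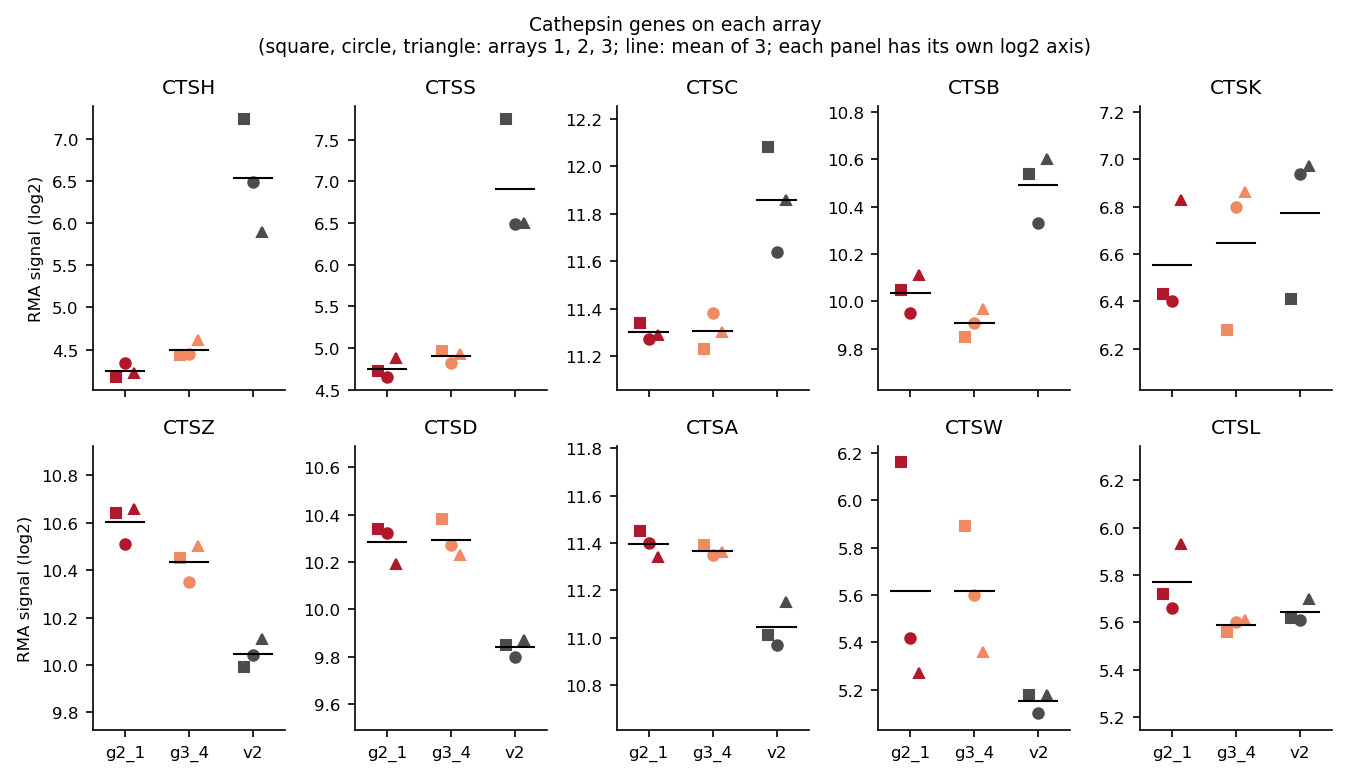
RMA signal (log2, own axis for each gene) of the 10 cathepsins on each array of g2_1, g3_4 and the v2 control, with symbols for arrays 1, 2 and 3 and a line at the mean of 3. For CTSH, CTSS, CTSC and CTSB all 6 knockout arrays lie below all 3 control arrays, for CTSZ, CTSD, CTSA and CTSW all lie above, and for CTSK and CTSL the groups overlap. Knockout and control arrays lie apart in this way for 20.4% of all transcript clusters.

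Promoter sequence is shown for 5 of the 7 members that moved in both clones, to set the risen genes beside the fallen ones. For CTSS and CTSB, which also fell, no promoter sequence was at hand, so theirs were not searched. Each run is the 100 bases before the RefSeq gene start (GRCh38.p14), read 5′ to 3′ on the gene's strand, and capitals mark CACGTG, the E-box core of the element to which TFEB and TFE3 bind. CTSA (chr20:45891235-45891334, plus strand), CTSD (chr11:1763928-1764027, minus strand) and CTSZ (chr20:59007255-59007354, minus strand) rose. CTSC (chr11:88337737-88337836, minus strand) and CTSH (chr15:78945047-78945146, minus strand) fell.
CTSA: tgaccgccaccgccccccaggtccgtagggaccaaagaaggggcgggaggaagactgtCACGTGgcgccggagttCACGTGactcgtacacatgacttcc
CTSD: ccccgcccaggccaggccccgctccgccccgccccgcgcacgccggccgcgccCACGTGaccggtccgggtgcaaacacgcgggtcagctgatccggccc
CTSZ: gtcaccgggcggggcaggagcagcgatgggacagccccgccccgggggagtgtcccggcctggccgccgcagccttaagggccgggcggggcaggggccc
CTSC: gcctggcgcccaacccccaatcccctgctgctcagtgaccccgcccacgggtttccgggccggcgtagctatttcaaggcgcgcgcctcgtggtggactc
CTSH: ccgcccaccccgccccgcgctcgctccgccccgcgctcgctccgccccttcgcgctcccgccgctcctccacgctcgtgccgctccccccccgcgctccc

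The motif, which reads the same on both strands, was looked for in the 250 bases before each start. It occurred in CTSA at 42 to 37 and at 25 to 20 bases before the start and in CTSD at 47 to 42 bases before it. CTSZ, CTSC, CTSH and CTSL, which passed in neither clone, held none in this window. Of all 35116 promoters searched, 6.34% held it. These were not limited to genes measured on the array and not matched in base content. For the genes shown, G and C made up 58.4% (CTSC) to 81.2% (CTSZ) of the 250 bases. Among the gene lists it occurred in 6 of 26 promoters of lysosomal hydrolases and membrane proteins. It occurred in 4 of 12 of the sorting list and in 3 of 11 of the proton pump. The list of lysosomal transcription factors and mTORC1 docking had the highest share, 5 of 14. In the MHC class II list 1 of 11 held it, and in the activation and inhibitor list 0 of 7. CTSF, a further cathepsin that did not pass (log2 fold change 0.035), held 2 copies. Its mean signals were 4.34 in g2_1, 4.55 in g3_4 and 4.41 in control, each smaller than the quartile value of 4.64. Levels so near the floor leave little room to show a fall. Any link between the motif and a change of signal was not tested. GAAANNGAA, the core of interferon response elements, and TTCNNNGAA, a STAT motif, were searched on both strands in the same window and occurred in 6.88% and 6.57% of all promoters and in 0 of these 6 members. A match of letters is a description and not a binding site.

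CTSH, an aminopeptidase of the lysosome that also trims surfactant protein in the lung, showed the largest change of the 10 members. Its log2 signal was 4.17, 4.34 and 4.22 in g2_1 and 4.44, 4.45 and 4.61 in g3_4, against 7.24, 6.49 and 5.90 in the v2 control. Each of the 6 knockout arrays was lower than the lowest control array, and the control arrays themselves spanned 1.34. Means were 4.24 ± 0.09 in g2_1, 4.50 ± 0.10 in g3_4 and 6.54 ± 0.67 in control (SD, n = 3 each). CTSH was 4.92-fold lower in g2_1 (log2 fold change -2.30, SE 0.26, adjusted p = 0.000137) and 4.12-fold lower in g3_4 (-2.04, SE 0.26, adjusted p = 0.000321). Both clone means are below that quartile of 4.64, where the array has little room left to show a lower level. Without control array 1 the averaged log2 fold change of CTSH was -1.82 (adjusted p = 5.02e-06).

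CTSS, the invariant chain protease, followed a like pattern. It read 4.73, 4.65 and 4.88 in g2_1 and 4.97, 4.82 and 4.93 in g3_4, against 7.75, 6.49 and 6.50 in control cells. The highest knockout array, at 4.97, lay below the lowest control array, at 6.49, and control array 1 stood above the other control arrays. CTSS was 4.47-fold lower in g2_1 (log2 fold change -2.16, SE 0.27, adjusted p = 0.000341) and 4.02-fold lower in g3_4 (-2.01, SE 0.27, adjusted p = 0.000589). Without control array 1 the averaged log2 fold change of CTSS was -1.67 (adjusted p = 4.03e-07). The clone means of 4.75 ± 0.12 and 4.91 ± 0.08 (SD, n = 3 each) lie just above the first quartile of the arrays.

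CTSK, the collagen-degrading protease of osteoclasts, is the direct neighbour of CTSS on chromosome 1 and did not pass. It read 6.43, 6.40 and 6.83 in g2_1 and 6.28, 6.80 and 6.86 in g3_4, against 6.41, 6.94 and 6.97 in control, with overlapping groups. Its averaged log2 fold change was -0.17 (SE 0.17, adjusted p = 0.583), and that of CTSK without control array 1 was -0.35 (adjusted p = 0.182). Over the 20 nearest measured genes around CTSS the median change was -0.019, with 1 fallen and 0 risen in both clones. Of all transcript clusters, 6.97% fell and 4.48% rose in both.

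CTSC, or dipeptidyl peptidase I, which activates the serine proteases of cytotoxic and neutrophil granules, had high signals in every group. It read 11.34, 11.27 and 11.29 in g2_1 and 11.23, 11.38 and 11.30 in g3_4, against 12.08, 11.64 and 11.86 in control. The highest knockout array, at 11.38, lay below the lowest control array, at 11.64. CTSC was 1.47-fold lower in each clone (log2 fold change -0.56 in both, SE 0.12), with an adjusted p of 0.00817 in g2_1 and 0.00851 in g3_4. Control array 1 was again the highest, and without it the averaged log2 fold change of CTSC was -0.45 (adjusted p = 0.00704).

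CTSB, a cysteine protease with both endopeptidase and carboxydipeptidase activity, fell by a like amount. Its signals were 10.05, 9.95 and 10.11 in g2_1 and 9.85, 9.91 and 9.97 in g3_4, against 10.54, 10.33 and 10.60 in control. The groups of knockout and control arrays did not overlap. CTSB was 1.37-fold lower in g2_1 (log2 fold change -0.45, SE 0.10, adjusted p = 0.0126) and 1.49-fold lower in g3_4 (-0.58, SE 0.10, adjusted p = 0.00311). In g2_1 the call was lost without g2_1 array 2 (adjusted p = 0.0583) or without the arrays numbered 1 (adjusted p = 0.0549), at log2 fold changes of -0.41 and -0.43.

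CTSZ, also called cathepsin X, a cysteine carboxypeptidase, rose in both clones. It read 10.64, 10.51 and 10.66 in g2_1 and 10.45, 10.35 and 10.50 in g3_4, against 9.99, 10.04 and 10.11 in control. Every g2_1 array lay above every g3_4 array, and every g3_4 array above every control array. CTSZ was 1.47-fold higher in g2_1 (log2 fold change 0.56, SE 0.09, adjusted p = 0.00219) and 1.31-fold higher in g3_4 (0.39, SE 0.09, adjusted p = 0.0175). The difference between the clones, 0.17 (SE 0.09), did not pass (adjusted p = 0.997). In g3_4 the call was lost without g3_4 array 1 (adjusted p = 0.0572), without g3_4 array 3 (0.0728) or without the arrays numbered 1 (0.0842).

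CTSD, the main aspartic protease of lysosomes, had the tightest control values of the risen members. Its signals were 10.34, 10.32 and 10.19 in g2_1 and 10.38, 10.27 and 10.23 in g3_4, against 9.85, 9.80 and 9.87 in control. All knockout arrays were above all control arrays, whose range was 0.07. CTSD was 1.36-fold higher in g2_1 (log2 fold change 0.44, SE 0.09, adjusted p = 0.00796) and 1.37-fold higher in g3_4 (0.45, SE 0.09, adjusted p = 0.007), and it passed in all 18 alternative fits of each clone at that threshold.

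CTSA, which as protective protein also stabilises lysosomal galactosidase and neuraminidase, had the smallest change that passed. It read 11.45, 11.40 and 11.34 in g2_1 and 11.39, 11.35 and 11.36 in g3_4, against 11.01, 10.97 and 11.15 in control. Knockout and control arrays did not overlap, with the lowest knockout array at 11.34 and the highest control array at 11.15. CTSA was 1.28-fold higher in g2_1 (log2 fold change 0.35, SE 0.09, adjusted p = 0.0242) and 1.25-fold higher in g3_4 (0.32, SE 0.09, adjusted p = 0.0366). The calls were weak: of 10 fits that left out arrays, 6 kept the call in g2_1 and 1, without control array 3, kept it in g3_4. It was also lost in fits of only the groups compared, at an adjusted p of 0.064 in g2_1 and 0.0803 in g3_4. With both clones averaged, CTSA no longer passed once control array 2 was dropped (adjusted p = 0.0546) or without the arrays numbered 1 (adjusted p = 0.0639).

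CTSW, a cathepsin known from cytotoxic T and NK cells, did not pass. It read 6.16, 5.42 and 5.27 in g2_1 and 5.89, 5.60 and 5.36 in g3_4, against 5.18, 5.10 and 5.18 in control. The arrays did not overlap, as was so for 20.4% of all transcript clusters, but array 1 was the highest in each clone. The averaged log2 fold change was 0.46 (SE 0.18, adjusted p = 0.114), and 0.27 without the arrays numbered 1 (adjusted p = 0.128). It passed with the array number as a block (adjusted p = 0.0355) and with arrays centred on their median (0.57, adjusted p = 0.0433). Among 8 markers of T and NK cells, 2 rose in both clones and 0 fell, beside 4.48% and 6.97% of all transcript clusters. CD2 rose 2.94-fold and CD247 2.3-fold with the clones averaged. Control array 1 was the lowest for both, and without it CD2 was 2.21-fold and CD247 1.84-fold higher. The log2 of the list's summed signal was 11.52 to 11.82 in g2_1, 11.43 to 11.67 in g3_4 and 10.38 to 11.29 in control. CD3E had means of 4.88 in g2_1, 4.71 in g3_4 and 4.87 in control cells, and the part of these genes in the values of CTSW was not tested.

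CTSL, the broad endopeptidase of lysosomes, had values of 5.72, 5.66 and 5.93 in g2_1 and 5.56, 5.60 and 5.61 in g3_4, against 5.62, 5.61 and 5.70 in control. The groups overlapped, and the averaged log2 fold change was 0.037 (SE 0.08, adjusted p = 0.836). When the 6 knockout and 3 control arrays were compared by exact permutation, two-sided, each of the 7 members that passed had p = 0.0119, the smallest that 84 splits can give. The permutation p was 0.0595 for CTSW, 0.321 for CTSK and 0.786 for CTSL. The 7 were called on these same arrays, so their permutation p is no separate support. Their knockout and control arrays did not overlap, as was so for 20.4% of all transcript clusters. The splits also treat the arrays of both clones as alike.

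**Figure D2:**
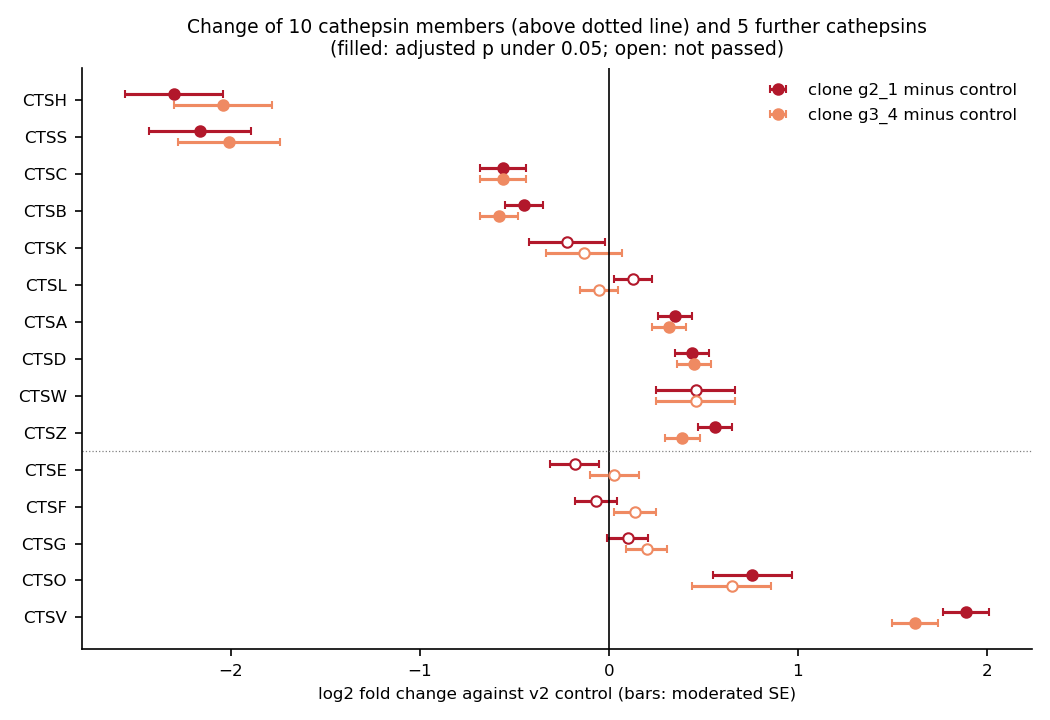
Log2 fold change of each clone against the v2 control, with the moderated SE as bars, for the 10 cathepsins and 5 further ones, filled where the adjusted p is under 0.05. CTSH and CTSS lie near -2, CTSC and CTSB near -0.5, CTSA, CTSD and CTSZ between 0.32 and 0.56, and CTSV, outside the 10, at 1.89 and 1.62.

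The clones did not differ detectably in any of the 10. In the direct comparison of g2_1 with g3_4, 0 members passed in limma, where 0.0526% of all transcript clusters did, or 11 of 20893. The differences between the clones were 0.18 for CTSL (SE 0.10), 0.17 for CTSZ (SE 0.09) and at most 0.15 in size for the other members that were above the first quartile of the arrays in both clones. Same-numbered arrays of the clones shared part of their deviations from the group means. The labels do not say what the number stands for. With the array number as a block 27 transcript clusters passed, again with 0 members among them. All g2_1 arrays lay above all g3_4 arrays for CTSL and CTSZ and below them for CTSH, which was under that quartile in both. Of all transcript clusters, 11.5% separated the clones in this way.

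**Figure D3:**
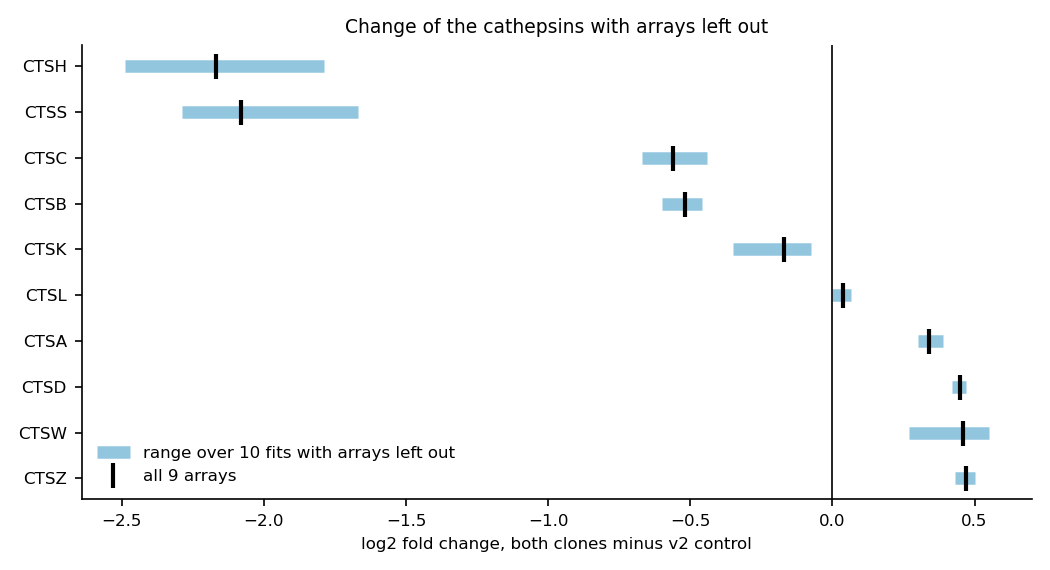
Log2 fold change of the cathepsins with both clones averaged against the v2 control, as a tick for all 9 arrays and a bar for the range over 10 fits that left out 1 array or the arrays numbered 1. CTSH spans -2.49 to -1.79 and CTSS -2.29 to -1.67, and the bars of the 7 members that passed stay on 1 side of 0.

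Of the 5 other cathepsins, CTSV rose in both clones and 0 fell, beside 4.48% risen and 6.97% fallen over all transcript clusters. CTSV, a close relative of CTSL with expression mainly in thymus and testis, read 8.82, 8.89 and 8.75 in g2_1 and 8.70, 8.44 and 8.53 in g3_4, against 7.14, 6.87 and 6.79 in control. Its log2 fold change was 1.89 in g2_1 (adjusted p = 1.42e-06) and 1.62 in g3_4 (adjusted p = 4.44e-06), a larger rise than that of any of the 10. Whether probes of CTSV and CTSL read each other's transcripts is not known here. CTSO passed in g2_1 (0.76, adjusted p = 0.0348) and missed in g3_4 (0.65, adjusted p = 0.0643), with control arrays at 5.84, 6.61 and 6.86, the lowest of them array 1. Without that array the averaged log2 fold change of CTSO was 0.41 (adjusted p = 0.018), against 0.70 with it. With the array number as a block, or with arrays centred on their median, 2 of the 5 rose in both clones. CTSE, CTSF and CTSG had averaged changes of -0.073, 0.035 and 0.15 and did not pass.

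Several cystatin genes changed too. Of 16 genes for cystatins, serpins and legumain, 5 fell in both clones and 1 rose, or 4 and 2 with centred arrays. Of all transcript clusters, 6.97% fell and 4.48% rose in both clones as deposited. The fallen genes were CST1, CSTA, CST4, CST11 and the serpin gene SERPINB9. CST11 was low in every group, with means of 4.15 in g2_1, 4.12 in g3_4 and 4.88 in control. CSTA, or stefin A, an inhibitor inside the cell, read 4.40, 4.46 and 4.36 in g2_1 and 4.21, 4.35 and 4.22 in g3_4, against 6.77, 7.55 and 7.07 in control. It fell by 2.80 with the clones averaged (SE 0.14, adjusted p = 2.07e-07), to signals under the first quartile of the arrays. CST1, a secreted cystatin, read 4.35, 3.98 and 4.21 in g2_1 and 3.94, 3.84 and 4.18 in g3_4, against 9.43, 8.50 and 8.23 in control. It fell by 4.64 (SE 0.22, adjusted p = 1.14e-07). CST1, CST2 and CST4 are close copies of each other, and their probes may read more than 1 of them.

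CST3, or cystatin C, the main secreted inhibitor of cysteine cathepsins, went the other way. Its signals were 10.32, 10.46 and 10.30 in g2_1 and 10.08, 10.10 and 10.12 in g3_4, against 8.76, 9.49 and 9.55 in control. The averaged rise was 0.96 (SE 0.15, adjusted p = 0.00131), with control array 1 the lowest of the control arrays, and without it 0.71 (adjusted p = 0.000207). CSTB, or stefin B, had a log2 fold change of 0.18 (SE 0.08, adjusted p = 0.142). LGMN, which encodes legumain, a protease that processes several cathepsins, had -0.15 (SE 0.09, adjusted p = 0.293). The median change of the list was 0.0058, and 10 of the 16 passed in neither direction in both clones.

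**Figure D4:**
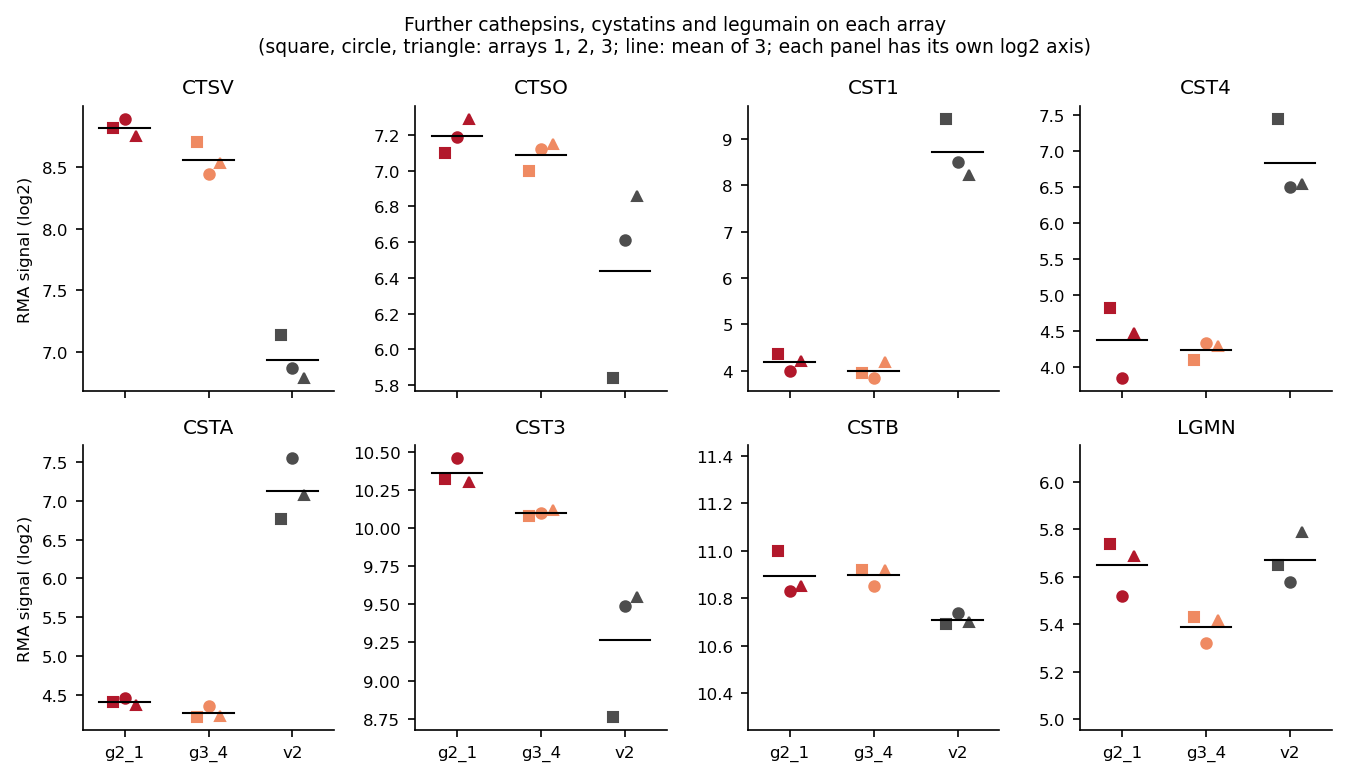
RMA signal (log2, own axis for each gene) of CTSV, CTSO, cystatins and LGMN on each array of g2_1, g3_4 and the v2 control, with a line at the mean of 3. CST1, CST4 and CSTA lie between 3.84 and 4.82 in the clones and at 6.51 or above in control cells, while CTSV and CST3 lie higher in the clones.

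Of 14 measured genes that sort enzymes to the lysosome, 2 rose and 1 fell in both clones. The shares over all transcript clusters were 4.48% risen and 6.97% fallen. GNPTAB, a subunit gene of the phosphotransferase that starts the mannose 6-phosphate tag, rose by 1.35 (SE 0.11, adjusted p = 6.74e-06), and NAGPA, which finishes the tag, by 0.55 (SE 0.13, adjusted p = 0.0131). SORL1, a sorting receptor, fell by 5.94 (SE 0.22, adjusted p = 1.31e-08). The receptors of the tag, M6PR and IGF2R, passed in neither clone, and M6PR had means of 10.95 in g2_1, 10.92 in g3_4 and 11.15 in control.

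Other lysosomal hydrolases and membrane proteins rose more often than they fell, at 7 of 30 measured genes against 1, where 4.48% and 6.97% of all transcript clusters did. ARSA and ARSB, which encode lysosomal sulfatases, rose by 0.80 (SE 0.13, adjusted p = 0.00128) and 0.79 (SE 0.11, adjusted p = 0.000534). ASAH1, or acid ceramidase, fell by 1.23 (SE 0.11, adjusted p = 2.77e-05). The median change of the list was 0.26, against 0.035 for all transcript clusters. Centring arrays on their median raised the count of risen genes to 11, and leaving out the arrays numbered 1 lowered it to 4. PPT1, a palmitoyl thioesterase of this list, was the gene whose profile lay closest to that of CTSA.

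The vacuolar proton pump, which acidifies the lysosome, had 3 risen and 2 fallen genes of 15. Over all transcript clusters, 4.48% rose and 6.97% fell. ATP6V1F rose by 0.77 (SE 0.08, adjusted p = 4.73e-05), and ATP6V1C1 by 0.48, while ATP6V1H fell by 0.54 and ATP6V0A2 fell by 0.47. Without the arrays numbered 1, 1 rose and 1 fell, and without control array 1 the call of ATP6V1C1 in g2_1 was lost (adjusted p = 0.11). TFEB and TFE3 themselves passed in neither clone. TFE3 had means of 8.41 in g2_1, 8.37 in g3_4 and 8.41 in control, and TFEB 4.74, 4.63 and 4.63 in that order. In every group TFEB thus lay close to the first quartile of the arrays (4.64), where a lower level could hardly show.

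In the MHC class II pathway, the setting in which CTSS works in B cells, 1 of 11 measured genes rose and 1 fell in both clones, HLA-DOA by 0.49 and HLA-DOB, which fell by 0.78. Without control array 1, or without the arrays numbered 1, 0 rose. CD74, the invariant chain itself, had means of 11.55 in g2_1, 12.24 in g3_4 and 12.39 in control. In limma it passed in g2_1 (log2 fold change -0.84, adjusted p = 0.004) and not in g3_4 (-0.14, adjusted p = 0.64). HLA-DRA, HLA-DPB1 and HLA-DPA1 were also lower in g2_1 only, at -0.93, -0.68 and -0.56 there. In g2_1 alone 5 of the 11 were lower, where 8.06% of all transcript clusters were. In g3_4 1 was lower, where 8.16% of all were. In the comparison of the clones 0 of the list passed.

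**Figure D5:**
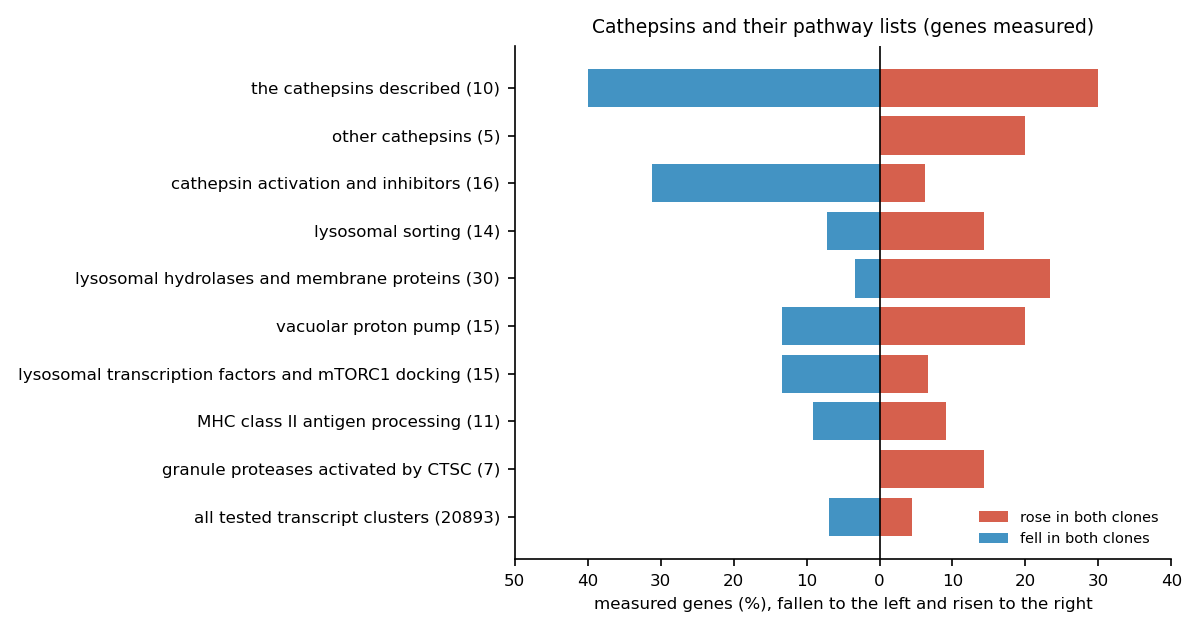
Percent of measured genes that fell (left) or rose (right) in both clones, for the cathepsins, their pathway lists and all tested transcript clusters, with the number of genes in brackets. Bars for all transcript clusters stand at 6.97% fallen and 4.48% risen.

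Macrophages are rich in many cathepsins, and 9 markers of monocytes and macrophages were read beside the members. AIF1 fell by 0.86 with the clones averaged, or by 0.58 without control array 1. In both clones 0 of the list rose and 1 fell, beside 4.48% and 6.97% of all transcript clusters. CD68 had an averaged log2 fold change of 0.69 (adjusted p = 0.0234), with an adjusted p of 0.0723 in g2_1 and 0.0401 in g3_4 and all 6 knockout arrays above the control arrays. With the array number as a block or with centred arrays 1 of the list rose in both clones, and without the arrays numbered 1, 0 fell. The log2 of their summed signal was 8.65 to 8.88 in g2_1, 8.46 to 8.80 in g3_4 and 8.50 to 8.88 in control, so the groups overlapped. Control means of 4 of the 9 lay above the first quartile of the arrays, and LYZ, at means of 4.18, 4.22 and 4.24 in g2_1, g3_4 and control, lay under it.

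Neighbours on the chromosome were read beside each member. The 10 nearest measured genes on either side of each, by RefSeq order, had a median change between -0.14 (around CTSA) and 0.29 (around CTSW). Around CTSH, 6 of 20 neighbours fell in both clones and 1 rose, with a median of -0.051. Around CTSC 4 of 20 fell, around CTSD 0 of 20 moved, and around CTSB 1 rose. Of all transcript clusters, 6.97% fell and 4.48% rose in both clones. CTSA and CTSZ, both on chromosome 20, had neighbour medians of -0.14 and 0.0025 and rose themselves.

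The genes with profiles most like each member over the 9 arrays were found by the root mean square difference of log2 signals centred on each gene's control mean. CTSS was closest to SLX4IP at 0.136 and TRIM10 at 0.153, and CTSH to PDP1 at 0.185 and to CTSS at 0.200, so of all named genes CTSS ranked second for CTSH. CTSA was closest to PPT1 (0.042) and CAPNS1 (0.043), CTSD to ANXA11 and RNF10 (0.033 each) and CTSZ to TACC1 and OGDH (0.070 each). CTSB was closest to ZNF283 (0.072) and MROH8 (0.081), and CTSC to SH2D4A (0.063) and NDUFB6 (0.069). Genes with small changes have many near profiles, so these values describe the arrays and not a relation between genes.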

How the data were processed

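RNA (250 ng) of 9 samples was read on Clariom S arrays. The authors deposited log2 signals, and the submitters' processing notes name RMA and Transcriptome Analysis Console 4.0; the genome build is not given in the sources used here. They hold no detection flags, so precision is limited by the number of arrays and levels near the floor understate falls. Of 21448 rows, 20893 transcript clusters were tested and 555 with unmapped IDs left out. The platform annotation gave 17705 of them 1 symbol, 0 several and 3188 none. All 17705 gene IDs matched RefSeq (GRCh38.p14), used for names, neighbours and promoters.

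Tests used limma 3.58.1 under R 4.3.3 (lmFit, eBayes, all 9 arrays, 1 coefficient per group, two-sided, Benjamini-Hochberg over all tested transcript clusters), after a check on simulated data. A gene rose or fell where both clones passed with 1 sign. The cathepsins and lists were chosen with earlier results of these data known. Named list genes are up to 2 risen and 2 fallen of each list by averaged change, all further cathepsins, and 2 genes most alike per member that passed; other genes named were chosen after their values were seen. Alternatives were the array number as a block, median centring, a filter on low levels, fits of the groups compared, trend, robust fits, array weights, all rows, left-out arrays and a limit on the fold. Same-numbered arrays deviated together between the clones (correlations 0.435, 0.191 and 0.310), but the labels do not say what the number stands for. With the control they reached 0.0426 to 0.285 in g2_1 and 0.0565 to 0.298 in g3_4, in each clone highest for the arrays numbered 1. Whether the arrays are paired is therefore not known.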

Additional observations from a re-analysis of the deposited data

How the results depend on the processing

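Each member comparison was refitted under 17 or 18 alternatives. CTSH, CTSS, CTSC and CTSD passed in both clones under all of them except, for CTSC and CTSD, the limit on the fold, and CTSA, CTSB and CTSZ kept their direction in all but lost calls with arrays left out, CTSA also in the fits of only the groups compared, as given above, and all 3 under that limit. With a log2 fold change of at least 1 also required, 2 members (CTSH and CTSS) passed in g2_1, in g3_4 and with the clones averaged, and 875, 886 and 873 transcript clusters did. Between the clones, where 11 transcript clusters passed, 27 passed with the array number as a block (the replicate block), 32 in a fit of only the clones, 50 with array weights and 4 to 45 with arrays left out (29 without the arrays numbered 1). With the block, 7 members passed in each clone and 8 with the clones averaged, CTSW being added, and it changed no other call of a member. Signs turned only for values that did not pass. After centring, CTSL in g3_4 was 0.057. With arrays left out, CTSK in g3_4 ran from -0.31 (without control array 1) to 0.057 (without g3_4 array 1), and CTSL with the clones averaged from -0.0033 (without g2_1 array 3) to 0.065. Between the clones, CTSD was 0.0087 with array weights and 0.0050 without the arrays numbered 1, and with single arrays left out CTSD ran from -0.042 to 0.037 (0.033 without g3_4 array 1), CTSC from -0.06 to 0.035 (0.012 and 0.0017 without g2_1 array 2 and 3, -0.04 without g3_4 array 1) and CTSK from -0.28 to 0.013. The cause was not tested. Centring moved the median change of all transcript clusters by 0.11. After the data were seen, the list counts were rerun without the arrays numbered 1, where 1 member rose and 3 fell in both clones, and without control array 1, where 2 rose and 4 fell.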

Other observations

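Granule proteases that CTSC activates were measured in 7 cases, of which GZMB rose in both clones by 0.91 (SE 0.10, adjusted p = 7.98e-05), with means of 9.20 in g2_1, 9.14 in g3_4 and 8.26 in control, while CTSC itself fell. The other 6 passed in neither direction. Among 15 measured genes that tie the lysosome to the growth kinase mTORC1, RRAGD, which encodes a Rag GTPase, fell by 4.31 (SE 0.27, adjusted p = 1.08e-06), to means of 4.65 in g2_1 and 4.87 in g3_4, against 9.07 in control. RRAGA, another Rag GTPase gene, fell by 0.81 (SE 0.11), and FNIP2, a partner of folliculin, rose by 1.04 (SE 0.11). In both clones, 1 of the 7 granule protease genes rose, and of the 15 genes tied to mTORC1 1 rose and 2 fell. Over all transcript clusters, 4.48% rose and 6.97% fell. The counts of both lists were the same without the arrays numbered 1.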
